A study of Coturnix japonica with 24 samples.

Results

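The SLC25A genes mostly encode mitochondrial carriers, and they were followed here in male Japanese quail (Coturnix japonica) under 3 day lengths, in liver and in white adipose tissue of the abdomen. Every gene whose name starts with SLC25A in either tissue's table was taken, and a gene's transcripts were summed. This gave 35 genes of 14983 in liver and the same 35 genes of 15542 in adipose tissue, or 35 of 17239 genes in both tables. Per the labels, all birds had lived under long days of 16 hours of light before they were moved to 16 hours (16v), 12 hours (12v) or 8 hours of light (8L). Each photoperiod gave 4 libraries of each tissue, 24 in all, read from polyadenylated RNA as Nanopore PCR-cDNA. No genotype, strain, bird age or length of exposure is given in the labels used here, and all birds were intact males as far as the labels say.

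Most SLC25 carriers are small proteins of the inner mitochondrial membrane, and many exchange a solute of the matrix for a solute of the cytosol. They bring ADP and phosphate to the ATP synthase and carry its ATP out, move citrate out for fat synthesis, bring acylcarnitines in for fatty acid oxidation, and pass reducing equivalents through the malate-aspartate shuttle. In birds the liver is the main site of fatty acid synthesis and adipose tissue mainly stores the fat that the liver exports.

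Values are CPM, counts put on a common library size with each library's total first multiplied by its TMM factor (trimmed mean of M values). Photoperiod values are on each tissue's own scale, and values set across tissues are on a common scale of all 24 libraries. The liver libraries held 72125 to 867217 counts each, and the adipose libraries 72716 to 1389063. A count of 0 therefore allows up to 3.31 to 32.1 CPM per liver library and 2.12 to 35.7 CPM per adipose library (3 counts). These floors, like every counting interval given, hold for counting error alone, because reads amplified by PCR and not marked by molecular identifiers are not independent molecules. The SLC25A genes together took 1476 to 2464 CPM in liver and 1078 to 1755 CPM in adipose tissue, before TMM scaling. Reads matching more than 1 transcript of a gene appear to be counted on each, so counts on the leading transcript are given for genes with few reads. For the summed counts of such genes the floors above are too low. Log2 fold changes (± SE) and adjusted p are from edgeR's quasi-likelihood test with Benjamini-Hochberg adjustment over all tested genes, with a threshold of 0.05. Of the 35 genes, 15 in liver, 18 in adipose tissue and 23 across tissues had enough counts for the test. The labels number the libraries but do not say outright that each came from a separate bird, so p-values measure the spread between these libraries.

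The tissues carried their defining markers. Of 12 hepatocyte markers, ALB (serum albumin) had 539620 counts in liver and 132 in adipose tissue, and of 10 adipocyte markers, FABP4 had 246461 counts in adipose tissue and 4 in liver. The summed hepatocyte markers had a liver median of 147259 CPM at 8L, 102389 CPM at 12v and 103063 CPM at 16v, and the 16v range (83541 to 121227) lay below the 8L range (124560 to 163889). The same markers summed to 2035 to 21198 CPM in adipose tissue, nearly all of it APOA1 (65423 counts) and TF (8063 counts). The summed hepatocyte markers rest mainly on ALB and TTR, and in the test at 16v against 8L 4 of the 12 were above 0 and 8 below, with APOB higher (1.46 ± 0.26) and AHSG lower (-2.21 ± 0.40, edgeR adjusted p = 0.0257 each). Other marker sums in liver lay the other way, with endothelial markers at 119 to 173 CPM at 16v, against 49.2 to 113 CPM at 8L, and fibroblast and stellate cell markers at 354 to 523 CPM at 16v, against 184 to 299 CPM at 8L. Liver 8L replicate 4 stood apart in immune markers (785 CPM, against 141 to 214 CPM in the other liver libraries) and cholangiocyte markers (71.2 CPM, against 0 to 27.6 CPM). A score of ribosomal protein genes set 3 liver libraries apart, namely 12v replicate 1 (6.78), 12v replicate 3 (7.95) and 16v replicate 1 (9.05). The other liver libraries scored -6.09 to 0.80. A high score in liver goes with low ribosomal protein values. The mean log2 CPM of these genes was 9.45, 9.16 and 9.34 in the 3 libraries, against 9.62 to 10.3 in the others. In adipose tissue 16v replicate 2, a library of 72716 counts, stood apart with a mean of 8.74 for the ribosomal protein genes, against 9.70 to 10.5 in the others. Skeletal muscle markers summed to 68114 CPM in 1 adipose library (16v replicate 4), against 14.9 to 9272 CPM in the other adipose libraries and 0 to 16.8 CPM in liver. In bulk tissue, fewer cells of a type and less RNA per cell cannot be told apart.

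The first comparison asks which carriers differ between the tissues over all photoperiods. Carriers of citrate, of aspartate and glutamate (SLC25A13), of acylcarnitine and of phosphate were higher in liver. So were the ADP/ATP carriers SLC25A5 and, less firmly, SLC25A6, while the ADP/ATP carrier SLC25A4 did not pass. The other aspartate/glutamate carrier, SLC25A12, was higher in adipose tissue, as was the ATP-Mg/phosphate carrier SLC25A24. Less firmly, so were the NAD carrier SLC25A51 and the glutathione carrier SLC25A39. Of the 23 tested members, 11 were higher and 5 lower in liver, with a median log2 fold change of 0.75. Over all 7276 genes tested, 23.5% were called higher and 33.5% lower (57% in all), with a median of -0.36. The 16 of 23 members called stand near that background for calls in either direction, and DESeq2 also called 16 (64.1% of all genes). A member could pass the count filter through the tissue where it was high, so these shares describe the tested members only.

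**Figure D1:**
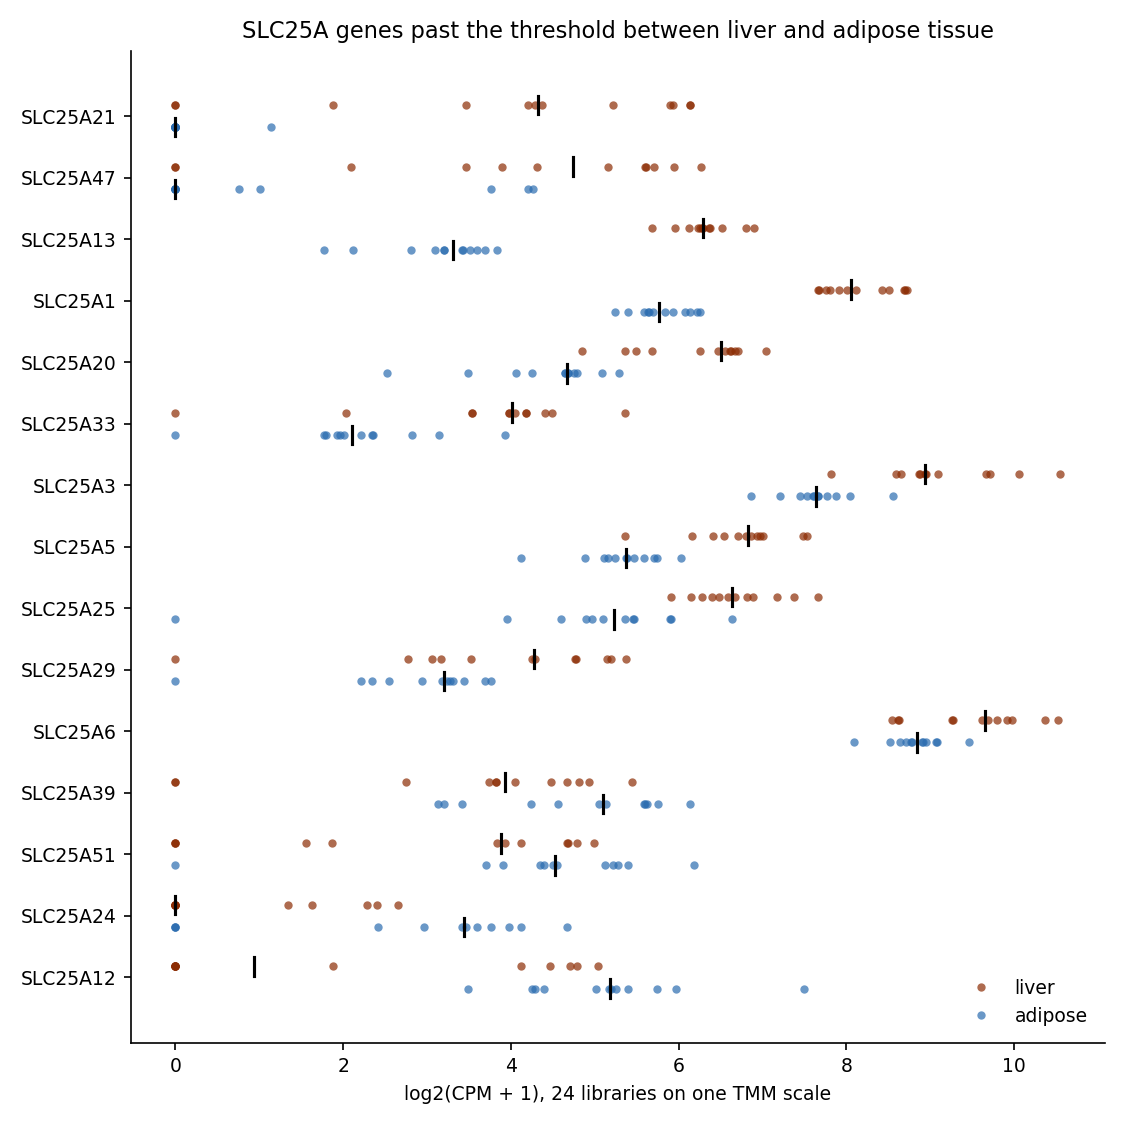
Dots are the libraries (12 of liver above 12 of adipose tissue for each gene) and black ticks the medians, as log2(CPM + 1) on the common TMM scale, for 15 of the 16 SLC25A genes called between the tissues. The liver and adipose dots of SLC25A13 and SLC25A1 do not overlap, while those of the other 13 genes drawn do. The share of all tested genes without overlap was not counted.

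Among carboxylate and amino acid-linked carriers, SLC25A13 and SLC25A1 separated the tissues. How many of all tested genes do so was not counted, so this is not read as particular to them. SLC25A13 (citrin), an aspartate/glutamate carrier of the malate-aspartate shuttle, had 50.3, 77.2 and 118 CPM as its lowest, median and highest in liver, against 2.41, 8.96 and 13.3 CPM in adipose tissue. Every liver library was above every adipose library, and the log2 fold change was 3.19 ± 0.25 (edgeR adjusted p = 3.98e-10). SLC25A1, the citrate carrier, had 201, 266 and 424 CPM in liver, against 36.9, 53.4 and 75.6 CPM in adipose tissue, again without overlap (2.36 ± 0.19, edgeR adjusted p = 6.22e-10).

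SLC25A12 (aralar), the partner of citrin in the same shuttle, ran the other way. Its lowest, median and highest values were 0, 1.33 and 31.8 CPM in liver, against 10.2, 35.4 and 179 CPM in adipose tissue (-3.53 ± 0.65, edgeR adjusted p = 0.000119). The ranges overlapped, and the highest adipose value belonged to the library with 68114 CPM of muscle markers. Without the 5 adipose libraries above 1000 CPM of muscle markers the log2 fold change was -2.65 (edgeR adjusted p = 0.00512). These fitted fold changes and the SE depend on the prior count, since SLC25A12 had 0 counts in every liver 16v library.

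SLC25A21, which carries 2-oxodicarboxylates of lysine and tryptophan breakdown, had 0, 19.1 and 69.5 CPM in liver, against 0, 0 and 1.21 CPM in adipose tissue. In liver 9 of its transcripts were listed, and the leading one had 33 counts over the liver libraries. In adipose tissue a single transcript was listed, with 1 count over the adipose libraries, and the unlisted ones added nothing to the adipose sum. The ratio of 33 counts to 1 count was 61.0 at equal depth (95% exact interval 10.2 to 2480). These counts need not come from the same transcript, so the ratio is not that of a single transcript between the tissues. The edgeR adjusted p was 8.64e-06, and the fitted fold change is left out because it depends on the prior count. SLC25A10 (dicarboxylate carrier) and SLC25A22 (glutamate carrier) had too few counts for the test, with medians of 3.58 and 3.83 CPM in liver, against 6.19 and 9.81 CPM in adipose tissue.

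The carriers that feed ATP synthesis were higher in liver in 3 of 4 cases. SLC25A3, the phosphate carrier, had 225, 492 and 1504 CPM in liver, against 115, 198 and 376 CPM in adipose tissue (1.52 ± 0.24, edgeR adjusted p = 9.49e-06). SLC25A5, an ADP/ATP carrier, had 40.3, 113 and 184 CPM in liver, against 16.4, 40.6 and 64.4 CPM in adipose tissue (1.45 ± 0.24, edgeR adjusted p = 1.68e-05). Both ranges overlapped at their edges.

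SLC25A6, another ADP/ATP carrier, had 373, 805 and 1474 CPM in liver, against 271, 459 and 706 CPM in adipose tissue (0.75 ± 0.21, edgeR adjusted p = 0.00466). This call was not kept with library size alone as the scaling (log2 fold change 0.18, edgeR adjusted p = 0.398), nor with the bird (the number both tissues' labels share) as a block (0.69, edgeR adjusted p = 0.0618) or without adipose 12v replicate 1 (0.48, edgeR adjusted p = 0.062). SLC25A4, the ADP/ATP carrier of heart and skeletal muscle in mammals, had 6.56, 35.8 and 77.5 CPM in liver, against 0, 3.59 and 328 CPM in adipose tissue (0.79 ± 0.68, edgeR adjusted p = 0.335). It passed with the bird as a block (2.60, edgeR adjusted p = 0.00341), in limma-voom (2.22, adjusted p = 0.0181), without the 5 adipose libraries with muscle markers (4.21, edgeR adjusted p = 1.28e-05) and without adipose 16v replicate 4 alone (2.15, edgeR adjusted p = 0.00888). The fit with the bird as a block also leaves out the liver and adipose libraries of 16v replicate 4. Its result is therefore not separate from the last of these.

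SLC25A20, which brings acylcarnitines into the matrix for fatty acid oxidation, had 27.9, 90.1 and 131 CPM in liver, against 4.76, 24.4 and 38.2 CPM in adipose tissue (1.83 ± 0.28, edgeR adjusted p = 9.19e-06). Of the liver libraries 1, 8L replicate 4, lay within the adipose range. The calcium-regulated ATP-Mg/phosphate carriers moved apart. SLC25A25 had 59.4, 98.5 and 201 CPM in liver, against 0, 36.8 and 98.2 CPM in adipose tissue (1.45 ± 0.32, edgeR adjusted p = 0.000536), while SLC25A24 had 0, 0 and 5.3 CPM in liver, against 0, 9.85 and 24.5 CPM in adipose tissue (-3.19 ± 0.79, edgeR adjusted p = 0.00178). SLC25A24 rested on 9 counts over the liver libraries and 109 over the adipose libraries. Its fitted fold change and SE depend on the prior count, since every liver 8L library had 0 counts of it.

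Among amino acid carriers, SLC25A29, which carries basic amino acids, had 0, 18.3 and 40.5 CPM in liver, against 0, 8.22 and 12.6 CPM in adipose tissue (1.23 ± 0.38, edgeR adjusted p = 0.00796). It missed the threshold with library size alone (0.74, edgeR adjusted p = 0.0986), without liver 16v replicate 1 (0.89, edgeR adjusted p = 0.0508) and without adipose 12v replicate 1 (0.84, edgeR adjusted p = 0.0665). SLC25A15, the ornithine carrier, had medians of 7.26 CPM in liver and 7.16 CPM in adipose tissue (0.45 ± 0.68, edgeR adjusted p = 0.601). SLC25A38, a glycine carrier that serves haem synthesis, was not tested, with medians of 3.19 CPM in liver and 9.86 CPM in adipose tissue.

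Among carriers of nucleotides and cofactors, calls went both ways. SLC25A33, a pyrimidine nucleotide carrier, was higher in liver, with 0, 15.1 and 40.0 CPM against 0, 3.32 and 14.3 CPM in adipose tissue (1.74 ± 0.44, edgeR adjusted p = 0.00191). SLC25A51, the NAD carrier, was lower in liver, with 0, 13.8 and 30.9 CPM against 0, 22 and 71.6 CPM in adipose tissue (-1.97 ± 0.53, edgeR adjusted p = 0.00317). In limma-voom SLC25A51 missed the threshold (-1.27, adjusted p = 0.0553). SLC25A36, another pyrimidine nucleotide carrier, had too few counts for the test, with medians of 2.97 CPM in liver and 5.98 CPM in adipose tissue.

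SLC25A39, a glutathione carrier, had 0, 14.3 and 42.6 CPM in liver, against 7.76, 33.2 and 69.5 CPM in adipose tissue (-1.05 ± 0.42, edgeR adjusted p = 0.0372). It was lost with the bird as a block (-1.01, edgeR adjusted p = 0.155), and it missed the threshold in 15 of the 24 fits that left out 1 library (-0.79, edgeR adjusted p = 0.122, without adipose 8L replicate 4).

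SLC25A47, a carrier expressed mainly in liver in mammals, had 0, 26.9 and 75.9 CPM in liver, against 0, 0 and 18.3 CPM in adipose tissue (3.43 ± 0.85, edgeR adjusted p = 0.0016). Its transcripts appear to share reads, and the summed count was 8.42 times that of the leading transcript in liver. Of the iron carriers, SLC25A37 (mitoferrin 1) had medians of 4.92 CPM in liver and 9.56 CPM in adipose tissue (-0.97 ± 0.62, edgeR adjusted p = 0.188), and SLC25A28 (mitoferrin 2) had 7.58 and 12.4 CPM (-0.50 ± 0.40, edgeR adjusted p = 0.291). Both passed as lower in liver with library size alone, and SLC25A37 also without liver 12v replicate 2 (-2.36, edgeR adjusted p = 0.0262). Leaving out that library left SLC25A37 with 0 counts in liver at 12v, so this fold change depends on the prior count. The uncoupling-protein-related SLC25A30 had medians of 0 CPM in liver and 6.98 CPM in adipose tissue (-0.95 ± 0.70, edgeR adjusted p = 0.254).

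Scaling mattered for the split. With library size alone 9 members were higher and 7 lower in liver, and the share of calls that were higher over all genes was 27% against 41.3% with TMM. The median over all genes was then -0.89 against -0.36. Counting 1 transcript per gene left 11 members to test, of which 8 were higher and 1 lower, and all 9 were among the 16. Over all genes that fit called 3282 of 4574, with 1472 of them higher.

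Genes that work with these carriers are given by list, to be read against the 23.5% of all tested genes called higher and the 33.5% called lower. Of 7 tested genes of citrate-dependent lipogenesis, 4 were higher and 1 lower in liver, with FASN (fatty acid synthase) at 3.40 ± 0.32, ACACA (acetyl-CoA carboxylase) at 2.73 ± 0.27 and ME1 (malic enzyme) at 3.89 ± 0.41 on the log2 scale (edgeR adjusted p from 6.19e-09 to 3.71e-08). Of 6 shuttle enzymes, 4 were higher and 0 lower (5 were above 0), including GPD1 (4.07 ± 0.42) and GOT1 (2.27 ± 0.28). Of 14 ATP synthase genes, 9 were higher and 0 lower (13 were above 0), with ATP5J at 1.67 ± 0.20.

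The citric acid cycle list had 7 of 18 tested genes higher and 4 lower in liver, with FH (fumarase) at 3.19 ± 0.26 and SUCLA2 (a succinyl-CoA ligase subunit) at -2.01 ± 0.34. Among 17 other mitochondrial membrane transporters, 7 were higher and 3 lower, with the pyruvate carrier subunit MPC2 at 3.38 ± 0.25. Arginine and ornithine enzymes had 2 of 5 higher and 3 lower, with ASL (argininosuccinate lyase) at -4.87 ± 0.73, and haem synthesis had 2 of 4 higher, with ALAS1 at 1.26 ± 0.39. Of the family members filed under other symbols, MTCH1, an insertase-like protein of the outer membrane, was lower in liver (-2.0 ± 0.70, edgeR adjusted p = 0.0187).

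The second question is which carriers differ in the liver between day lengths. At 12v against 8L, 0 of 15 tested members passed, where 0.331% of all 4532 genes did. At 16v against 8L, 0 of 15 passed, against 0.794% of all genes, and at 16v against 12v 0 of 15 passed, against 0.0221%. An F test over the 3 day lengths together also called 0 of 15, against 0.53%. At an unadjusted p under 0.05 the members numbered 2, 3, 1 and 2. Over all 4532 genes, 452 were higher and 379 lower at 12v against 8L at that unadjusted p. At 16v against 8L these were 466 and 499, and at 16v against 12v they were 54 and 36. The F test count has no all-gene share beside it and is not read as a result. A member that missed the threshold is not shown to be unchanged. limma-voom called 0 in each. DESeq2 called 1 member at 12v against 8L (8.05% of all genes), 2 at 16v against 8L (12%), 0 at 16v against 12v (0.0662%) and 3 for any difference (10.2%). The members' median log2 fold change was -0.04 at 12v and -0.26 at 16v against 8L, beside -0.08 and 0.07 over all genes. With library size alone the all-gene medians were 0.15 and 0.33. Among the 6 members with the smallest p in each liver comparison, none changed direction under another scaling. The directions of the other members were not compared between scalings. How many of all genes separate the day lengths without overlap was not counted. The separations given below for single carriers are therefore not read as particular to them.

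**Figure D2:**
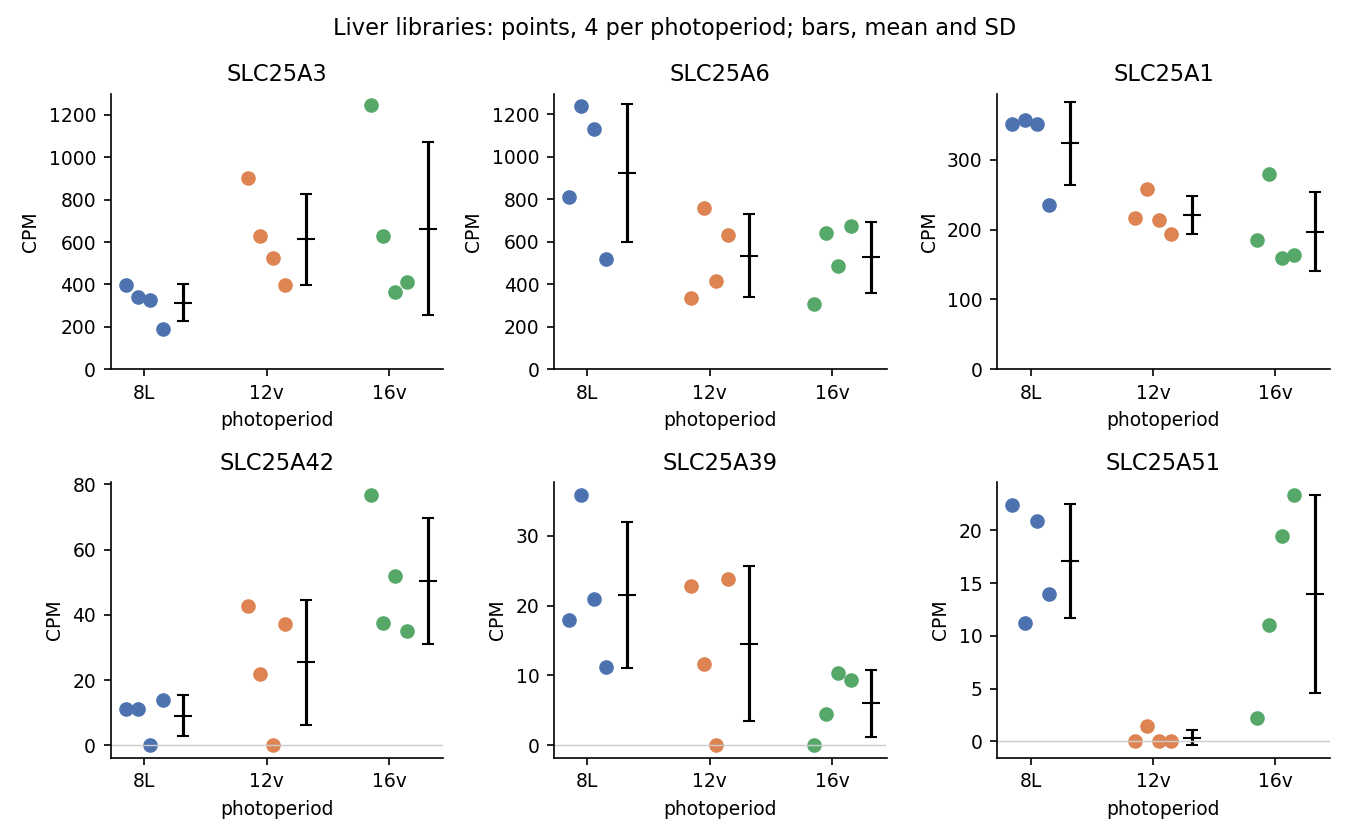
CPM of 6 SLC25A genes in the 12 liver libraries (dots, 4 per photoperiod, with mean and SD beside them; linear axes from 0). SLC25A42 at 16v lies above 8L and SLC25A39 at 16v below it, and the groups of SLC25A3, SLC25A6 and SLC25A1 overlap. The share of all genes without overlap between day lengths was not counted. The SLC25A51 dots at 12v lie below both other groups, though the 0 of 12v replicate 3 allows up to 32.1 CPM. That floor is too low where reads are counted on several transcripts.

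SLC25A3 (phosphate carrier) had 396, 339, 328 and 191 CPM at 8L, 901, 630, 525 and 395 CPM at 12v, and 1247, 630, 366 and 412 CPM at 16v. The lowest library of each longer day length lay within the 8L range. The log2 fold change against 8L was 0.97 ± 0.43 at 12v (edgeR adjusted p = 0.251) and 1.08 ± 0.43 at 16v (edgeR adjusted p = 0.171). The highest values at 12v and 16v came from libraries with a high ribosomal protein score, which means low ribosomal protein values. Without those 3 libraries the log2 fold changes were 0.77 and 0.64 (edgeR adjusted p = 0.495 and 0.332), and without 8L replicate 4, the lowest, they were 0.79 and 0.92 (edgeR adjusted p = 0.397 and 0.302).

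SLC25A6, an ADP/ATP carrier, had 812, 1241, 1129 and 521 CPM at 8L, 334, 760, 418 and 631 CPM at 12v, and 310, 640, 487 and 674 CPM at 16v. Of the 8 libraries of the longer days 4 lay below the 8L range and 4 within it, above the 521 CPM of 8L replicate 4. The log2 fold changes were -0.78 ± 0.38 at 12v and -0.81 ± 0.38 at 16v (edgeR adjusted p = 0.294 and 0.243), -0.35 and -0.56 without the 3 libraries set apart, and -0.99 and -0.97 without 8L replicate 4. SLC25A5 had means of 107 ± 39.5, 85.4 ± 42.7 and 84.9 ± 8.86 CPM (SD, n = 4) at 8L, 12v and 16v. SLC25A4 had 25.3 ± 14.9, 38.9 ± 17.0 and 28.1 ± 12.7 CPM (SD, n = 4), with 0.63 ± 0.63 on the log2 scale at 12v against 8L (edgeR adjusted p = 0.607).

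SLC25A1, the citrate carrier, had 351, 357, 351 and 235 CPM at 8L, 217, 258, 214 and 193 CPM at 12v, and 184, 280, 160 and 163 CPM at 16v. Apart from 8L replicate 4 the 8L libraries were above all others. The log2 fold changes were -0.55 ± 0.29 at 12v and -0.72 ± 0.29 at 16v (edgeR adjusted p = 0.335 and 0.18). DESeq2 called the difference at 16v against 8L (-0.81, adjusted p = 0.0188). Without 8L replicate 4, the library high in immune markers, they were -0.68 and -0.82 (edgeR adjusted p = 0.315 and 0.189). The summed hepatocyte markers, given above, lay lower at 16v than at 8L while the endothelial and the fibroblast and stellate cell sums lay higher, and the part of these in the result was not tested.

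The list of citrate-dependent lipogenesis holds the enzymes that use exported citrate and their regulator THRSP. At 16v against 8L 0 of 6 tested genes of this list had a log2 fold change above 0 and 6 below, beside 2151 of all 4532 genes below 0, and 1 passed, THRSP, a regulator of lipogenic genes (-3.56 ± 0.65, edgeR adjusted p = 0.0258). At 12v 6 of 6 were below 0, beside 2390 of 4532, and 0 passed. At 16v the marker sums given beside SLC25A1 moved with these values, and their part was not tested. Of the other lists at 16v against 8L, ATP synthase had 10 of 14 genes below 0, the citric acid cycle 12 of 16, the shuttle enzymes 4 of 5, the other membrane transporters 8 of 14, haem synthesis 1 of 3, arginine and ornithine enzymes 1 of 2 and the family members under other symbols 1 of 1, and 0 passed in any of these.

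SLC25A13 had 60.2 ± 6.09, 62.9 ± 7.14 and 75.5 ± 15 CPM at 8L, 12v and 16v (SD, n = 4), and SLC25A20 had 76.1 ± 36.8, 54.6 ± 19.8 and 63.9 ± 14.9 CPM (SD, n = 4), with 23.7 CPM in 8L replicate 4. The log2 fold change at 16v against 12v was 0.25 ± 0.32 for SLC25A13 (edgeR adjusted p = 0.999), and at 16v against 8L it was -0.24 ± 0.47 for SLC25A20 (edgeR adjusted p = 0.809). SLC25A25 had 104 ± 25.0, 106 ± 73.5 and 72 ± 31.9 CPM (SD, n = 4), with -0.50 ± 0.49 at 16v against 12v (edgeR adjusted p = 0.999). These groups overlapped in each pair.

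SLC25A42, the carrier of coenzyme A and ADP, had 11.2, 11.2, 0 and 14 CPM at 8L, 42.8, 21.9, 0 and 37.3 CPM at 12v, and 76.9, 37.5, 51.9 and 35.0 CPM at 16v. Every 16v library was above every 8L library, while 12v overlapped 8L. The log2 fold change at 16v against 8L was 2.41 ± 0.83 (edgeR adjusted p = 0.129), and DESeq2 called it (2.32, adjusted p = 0.0143). At 12v against 8L it was 1.55 ± 0.83 (edgeR adjusted p = 0.336), and at 16v against 12v it was 0.85 ± 0.78 (edgeR adjusted p = 0.999). On the leading of its 5 transcripts these were 28 counts at 16v, 11 at 12v and 4 at 8L.

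SLC25A51, the NAD carrier, had 22.4, 11.2, 20.9 and 14 CPM at 8L, 0, 1.46, 0 and 0 CPM at 12v, and 2.2, 11, 19.5 and 23.3 CPM at 16v. All 12v values were below all of 8L and of 16v. The 0 of 12v replicate 3, however, allows up to 32.1 CPM, above every 8L and 16v value. Those of 12v replicates 1 and 4 allow up to 8.55 and 5.09 CPM, above the 2.2 CPM of 16v replicate 1. Reads appear to be counted on several of its 5 transcripts, and the summed count was 4.56 times that of the leading one in liver. These floors, set at 3 summed counts, are therefore too low for SLC25A51, and the libraries at 0 cannot be placed below 8L by them. The adjusted p from edgeR was 0.0728 at 12v against 8L and 0.999 at 16v against 12v, and DESeq2 called the first (adjusted p = 0.0119). Few reads stand behind it, with 7, 1 and 10 counts of the leading transcript at 8L, 12v and 16v. At equal depth the leading transcript's ratio of 12v to 8L was 0.173 (95% exact interval 0.00385 to 1.35), and that of 16v to 12v was 5.75 (0.818 to 250), so the counts of the single transcript do not set the groups apart.

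SLC25A39, a glutathione carrier, had 17.9, 35.9, 20.9 and 11.2 CPM at 8L, 22.8, 11.7, 0 and 23.8 CPM at 12v, and 0, 4.41, 10.4 and 9.33 CPM at 16v. The 16v libraries were below all 8L libraries, with a log2 fold change of -1.74 ± 0.85 (edgeR adjusted p = 0.262), and -1.33 ± 0.86 at 16v against 12v (edgeR adjusted p = 0.999). Few reads stand behind this, with 11, 9 and 5 counts at 8L, 12v and 16v on the leading of its 4 transcripts. SLC25A29, the basic amino acid carrier, had 15.7, 6.73, 6.27 and 15.4 CPM at 8L, 34.2, 4.37, 0 and 8.48 CPM at 12v, and 28.6, 27.6, 20.8 and 19.8 CPM at 16v. Its 16v libraries were above all 8L libraries (1.10 ± 0.73, edgeR adjusted p = 0.418), and the 12v libraries spanned both. SLC25A26 (S-adenosylmethionine carrier), SLC25A21 and SLC25A47 had adjusted p of 0.63 to 0.998 in the edgeR contrasts with 8L.

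The remaining 20 members had too few liver counts for the test. Of these, 3 are named here after their values were seen. SLC25A12 had 22.4, 2.24, 27.2 and 14 CPM at 8L, 0, 19.0, 0 and 17.0 CPM at 12v, and 0 in every 16v library. On its leading transcript there were 8, 5 and 0 counts at 8L, 12v and 16v. If the 16v group had held 3 counts, the floor used here, its level would have been 3.82-fold lower than at 8L. This ratio takes the 8 counts as exact and leaves out the spread between libraries, so it is not a lower bound. SLC25A30 had 0 counts at 16v and 13 at 8L on its leading transcript. With the same assumed 3 counts at 16v it would have been 6.21-fold lower there, with the same limits. Its summed count, however, was above 0 in 16v replicate 3 and 0 in 8L replicate 1.

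SLC25A28 (mitoferrin 2), which brings iron into the matrix, had 17.9, 18.0, 14.6 and 11.2 CPM at 8L, 2.85, 2.92, 0 and 5.09 CPM at 12v, and 0, 6.62, 5.19 and 8.16 CPM at 16v. The values of both longer day lengths lay below 8L in every library, on 31, 6 and 17 counts at 8L, 12v and 16v. The 0 of 12v replicate 3 allows up to 32.1 CPM, above every 8L value, so that library cannot be placed below 8L. No test was made for it within liver.

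In adipose tissue the day length comparisons called no carrier. At 12v against 8L 0 of 18 tested members passed, beside 0.0154% of 6494 genes, and at 16v against 8L and 16v against 12v 0 of 18 passed, beside 0% of genes in each. The F test of any difference called 0 as well (0% of genes). At an unadjusted p under 0.05 there were 0, 1, 1 and 1 members, given without the all-gene share and not read as a result. limma-voom and DESeq2 called 0 members in each (DESeq2 called 0.185%, 0.585%, 0.077% and 0.57% of all genes). The members' median log2 fold change against 8L was 0.23 at both 12v and 16v, beside -0.03 and -0.06 over all genes. The pathway lists passed 0 genes in all 3 pairs. At 16v against 8L 13 of 14 ATP synthase genes, 14 of 17 citric acid cycle genes, 6 of 6 shuttle enzymes, 8 of 15 other transporters, 4 of 7 lipogenesis genes, 1 of 4 haem genes, 3 of 5 arginine and ornithine enzymes and 0 of 2 family members under other symbols were above 0, beside 2976 of all 6494 genes. In the same contrast 6 of 6 tested skeletal muscle markers were above 0, with a median log2 fold change of 4.81 and 4 at an unadjusted p under 0.05, and their part in these directions was not tested.

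**Figure D3:**
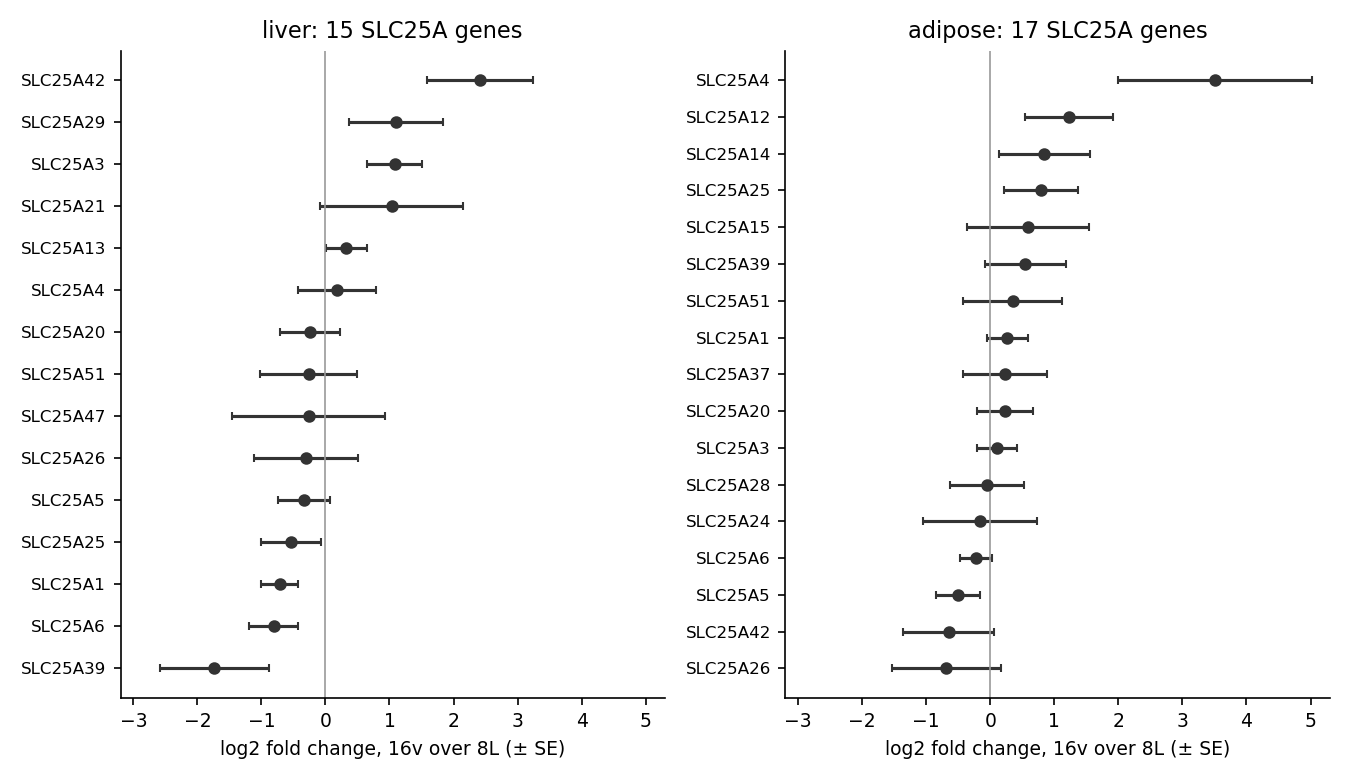
Log2 fold changes at 16v over 8L (dots) with SE (bars) for the 15 members tested in liver (left) and 17 of the 18 tested in adipose tissue (right), each panel in order of size. No member passed the adjusted threshold in either tissue. The highest value, 3.51 ± 1.52 for SLC25A4 in adipose tissue, rests on 1 library.

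SLC25A4 had 27.3, 3.54, 3.01 and 3.52 CPM at 8L, 4.98, 41.4, 8.54 and 0.807 CPM at 12v, and 0, 47.6, 2.90 and 378 CPM at 16v. A single library, 16v replicate 4, was far above the rest. The log2 fold change at 16v against 8L was 3.51 ± 1.52 (edgeR adjusted p = 0.693) and was -0.21 without that library, and at 16v against 12v it was 2.96 ± 1.48 (edgeR adjusted p = 0.991) and was -0.76. The 4 libraries with 27.3 to 378 CPM of SLC25A4 were the 4 with the most muscle marker counts, 3958, 6410, 9272 and 68114 CPM in 8L replicate 1, 16v replicate 2, 12v replicate 2 and 16v replicate 4. In the other 8 libraries SLC25A4 was at most 8.54 CPM with muscle markers of 14.9 to 1150 CPM. Of the 10 muscle markers 8 had counts in adipose tissue, led by TNNT3 (60935 counts, fast troponin T) and ACTA1 (6771 counts, skeletal actin). CKM and MYH1 were absent from both tissues' tables under these symbols. Whether muscle in the sampled tissue accounts for these values was not tested.

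SLC25A12, which mammalian muscle also expresses, had 61.5, 21.2, 39.1 and 23.5 CPM at 8L, 12.5, 73.4, 42.7 and 43.6 CPM at 12v, and 40.6, 59.5, 21.7 and 206 CPM at 16v. The groups overlapped, with the highest value in the same 16v library. The log2 fold changes at 16v were 1.23 ± 0.69 against 8L (edgeR adjusted p = 0.802) and 0.96 ± 0.69 against 12v (edgeR adjusted p = 0.991). Without 16v replicate 4 they were 0.05 and -0.23.

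**Figure D4:**
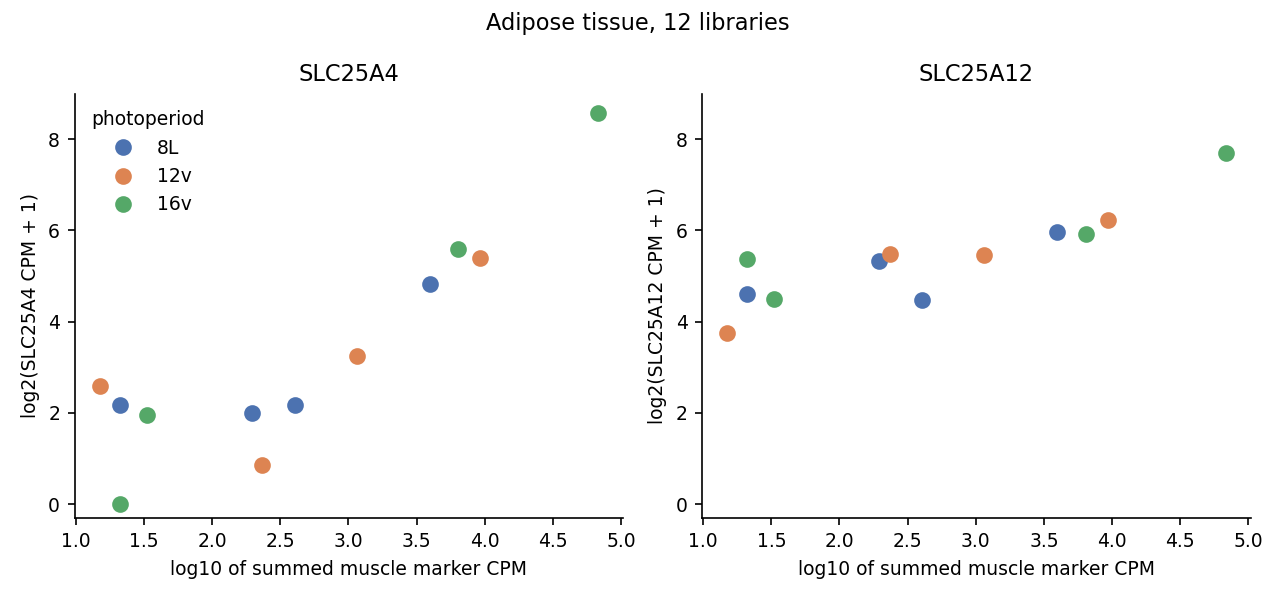
SLC25A4 (left) and SLC25A12 (right), as log2(CPM + 1), against the log10 of the summed CPM of the skeletal muscle markers in the 12 adipose libraries, coloured by photoperiod. The library with 68114 CPM of muscle markers has 378 CPM of SLC25A4 and 206 CPM of SLC25A12.

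SLC25A20, the acylcarnitine carrier, had 38.7, 29.7, 30.1 and 21.1 CPM at 8L, 12.5, 29.4, 5.69 and 18.6 CPM at 12v, and 30.9, 35.7, 29.0 and 44.1 CPM at 16v. The 12v libraries were mostly the lowest, with 12v replicate 2 inside the range of both other groups. The log2 fold change was -0.79 ± 0.44 at 12v against 8L (edgeR adjusted p = 1.00) and 1.01 ± 0.45 at 16v against 12v (edgeR adjusted p = 0.991). SLC25A25 (ATP-Mg/phosphate) had 27.3, 38.2, 18.0 and 35.2 CPM at 8L, 120, 48.1, 51.2 and 33.9 CPM at 12v, and 68.2, 0, 52.1 and 68.1 CPM at 16v. Its log2 fold change against 8L was 1.03 ± 0.58 at 12v (edgeR adjusted p = 1.00) and 0.79 ± 0.58 at 16v (edgeR adjusted p = 0.862), and the groups overlapped.

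The carriers of phosphate and of ADP and ATP overlapped between day lengths in adipose tissue. SLC25A3 had 254 ± 50.7, 223 ± 10.7 and 269 ± 115 CPM at 8L, 12v and 16v (SD, n = 4), and SLC25A5 had 59.3 ± 11.7, 47.0 ± 11.6 and 39.8 ± 13.4 CPM (SD, n = 4). SLC25A6 had 557 ± 55.9, 638 ± 165 and 474 ± 83.1 CPM (SD, n = 4). The log2 fold change at 16v against 8L was -0.50 ± 0.34 for SLC25A5 (edgeR adjusted p = 0.843) and -0.22 ± 0.26 for SLC25A6 (edgeR adjusted p = 0.932).

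SLC25A1 had 63.1 ± 9.44, 65.5 ± 22.6 and 75.0 ± 11.6 CPM at 8L, 12v and 16v in adipose tissue (SD, n = 4), with a log2 fold change of 0.27 ± 0.32 at 16v against 8L (edgeR adjusted p = 0.933). SLC25A42 had 30.2 ± 11.3, 19.6 ± 13.1 and 15.4 ± 20.8 CPM (SD, n = 4), and -0.65 ± 0.71 at 16v against 8L (edgeR adjusted p = 0.926). SLC25A39 had 28.3 ± 21.8, 50.8 ± 26.8 and 39.4 ± 24.3 CPM (SD, n = 4), with 0.77 ± 0.62 at 12v against 8L (edgeR adjusted p = 1.00). SLC25A15 (ornithine carrier) was at -1.22 ± 1.01 at 12v against 8L and 1.82 ± 1.03 at 16v against 12v, and SLC25A14, an uncoupling-protein-related carrier, at 0.84 ± 0.71 at 16v against 8L and 1.21 ± 0.73 at 16v against 12v (edgeR adjusted p from 0.895 to 1.00).

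Whether liver and adipose tissue responded differently was tested as the difference of their log2 fold changes, liver minus adipose. For 12v against 8L 0 of 23 members passed (0.426% of 7276 genes did), for 16v against 8L 0 passed (0.302%), and for 16v against 12v 0 passed (0%). At an unadjusted p under 0.05 there were 3 members in each, again without the all-gene share and not read as a result. limma-voom called 0 in each, and DESeq2 called 1, 2 and 1 (2.38%, 4.89% and 0.234% of genes).

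SLC25A12 had the smallest p for 16v against 8L. On the common scale it averaged 0 CPM at 16v and 19.4 ± 12.8 CPM at 8L in liver, against 68.3 ± 74.5 CPM at 16v and 30.6 ± 15.6 CPM at 8L in adipose tissue (SD, n = 4). The edgeR adjusted p was 0.0592, and it passed with relative log expression factors (adjusted p = 0.0455), with library size alone (0.047) and in DESeq2 (0.000926). Without a count filter, with 1 transcript per gene and with the bird as a block 0 members were called. Over all genes these fits called 0 of 17220, 162 of 4574 and 0 of 7562. In liver SLC25A12 had 8, 5 and 0 counts on its leading transcript at 8L, 12v and 16v, too few for the test within liver. Without the 5 adipose libraries with muscle markers the edgeR adjusted p was 0.268. The fitted difference depends on the prior count, since liver at 16v held 0 counts.

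SLC25A42 had a difference of 3.18 ± 1.11 for 16v against 8L (edgeR adjusted p = 0.19). It averaged 63.4 ± 21.4 CPM at 16v and 10.8 ± 7.32 CPM at 8L in liver, against 13.3 ± 18.1 CPM at 16v and 25.2 ± 8.52 CPM at 8L in adipose tissue (SD, n = 4), and DESeq2 called the difference (adjusted p = 0.039). SLC25A51 did not pass for 12v against 8L (edgeR adjusted p = 0.126), with 0.484 ± 0.968 CPM at 12v and 20.2 ± 6.33 CPM at 8L in liver, against 32.9 ± 30.1 CPM at 12v and 21.4 ± 9.11 CPM at 8L in adipose tissue (SD, n = 4). SLC25A28 had a difference of -2.55 ± 1.00 for 12v against 8L (edgeR adjusted p = 0.361), and SLC25A3 had 1.18 ± 0.57 for 12v against 8L and 1.10 ± 0.57 for 16v against 8L (edgeR adjusted p = 0.476 and 0.389).

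SLC25A3 has 2 transcripts in both tables, and the share of its counts on the less counted one was compared between day lengths. The transcripts cannot be matched here to named isoforms of the phosphate carrier. Reads that fit both transcripts appear to be counted on each, which would draw the 2 counts toward equality. The share therefore need not measure transcript use, and the part of such reads in the differences below was not tested. In liver the share was 37.9%, 33.1%, 31.2% and 39.4% in the 8L libraries, 47.2%, 42.4%, 49% and 33.9% in those of 12v, and 48.4%, 44.8%, 42.2% and 43.1% in those of 16v. All 16v libraries were above all 8L libraries, and 12v spanned both. The mean was 44.6 ± 2.75% at 16v against 35.4 ± 3.87% at 8L (SD, n = 4), a difference of 9.23 percentage points (two-sided exact permutation p = 0.0286, 0.0571 after Benjamini-Hochberg adjustment over 6 comparisons). At 12v it was 43.1 ± 6.73% (exact permutation p = 0.114 against 8L). The highest shares at 12v and 16v were in the 3 libraries with a high ribosomal protein score, which means low ribosomal protein values.

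In adipose tissue the share was 33.9%, 37.3%, 31.1% and 35.9% in the 8L libraries, 30.0%, 37.0%, 37.0% and 35.1% in those of 12v, and 40.3%, 50%, 37.7% and 40.0% in those of 16v. Every 16v library was above every library of the other day lengths, and the 50% came from 14 counts. The mean was 42.0 ± 5.46% at 16v, against 34.8 ± 3.30% at 12v and 34.6 ± 2.69% at 8L (SD, n = 4), with differences of 7.22 and 7.41 points (two-sided exact permutation p = 0.0286 each, 0.0571 adjusted). With 4 libraries per group 0.0286 is the smallest p this test can give, 3 of the 6 comparisons reached it, and no comparison passed after adjustment. This comparison was added after the data were seen.

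**Figure D5:**
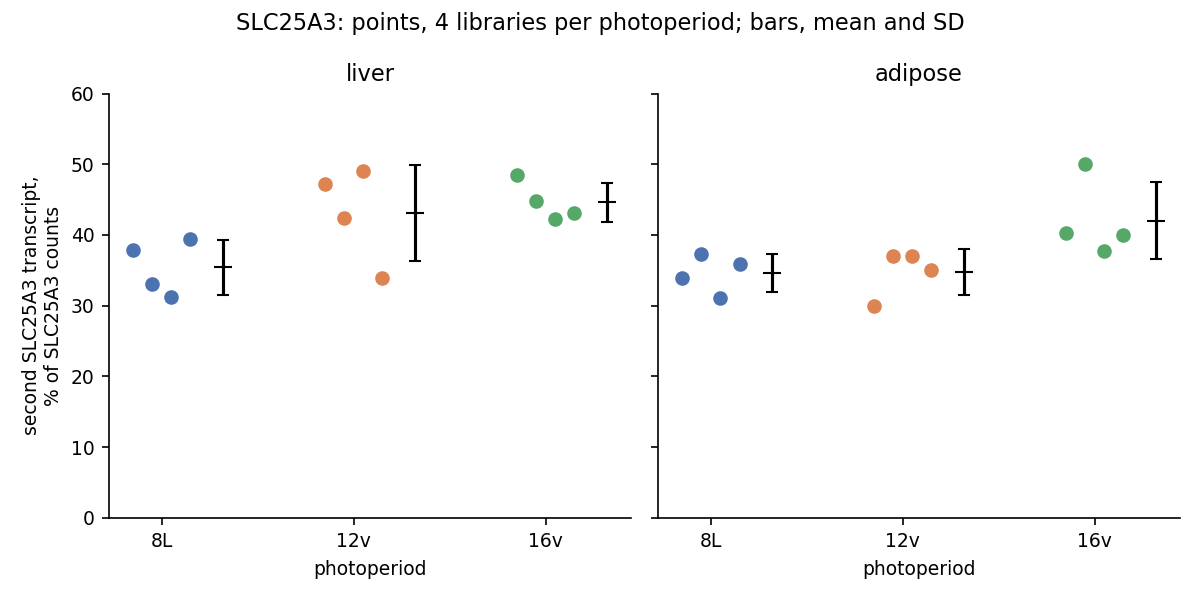
Share of SLC25A3 counts on the less counted of its 2 transcripts, in percent, in each liver (left) and adipose (right) library by photoperiod (dots, with mean and SD beside them). The 16v dots lie above the 8L dots in both tissues. Reads that fit both transcripts appear to be counted on each, so the share need not measure transcript use.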

How the data were processed

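RNA of liver and abdominal white adipose tissue (24 libraries, 6 groups of 4) was read as Nanopore PCR-cDNA. The deposited tables, 1 per tissue, hold the authors' estimated counts (expected counts) per transcript, not normalized between libraries. The tools named, per the submitters' processing notes, are minimap2 (an aligner) and Salmon (a quantifier), with versions, genome build and annotation not given in the sources used here. Of the deposited values, 99.5% (liver) and 99.6% (adipose tissue) were whole within 1e-06. They were summed per gene and rounded. Symbols are those of the files, and the quail RefSeq table holds 35 of 35 of them and 0 of the transcript accessions, so no coordinates or sequences are given.

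The 12 libraries of a tissue were fitted together in edgeR's quasi-likelihood model with TMM factors, a mean per photoperiod and 9 residual degrees of freedom, after filterByExpr (minimum count 10, minimum total 15). Tissues were compared in a fit of all 24 libraries as the mean of the liver groups minus that of the adipose groups. SE is the log2 fold change's size divided by the root of the F statistic. Members with many transcripts can pass the filter through the apparent repeat counting of reads. Genes named are all members past the threshold, otherwise the 6 with the smallest p, at least 1 per transport role, and up to 3 per pathway list that passed a member; exceptions are marked, and 1 member that counts among those tested and called is not reported here. The members and lists were chosen with earlier results of these data known.

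Alternatives were library size alone, relative log expression (RLE) factors, no filter, a mean of at least 20 counts, limma-voom, DESeq2, 1 transcript per gene, a replicate or bird block, the groups compared alone, and leaving out libraries. Leaving out 5 adipose libraries with muscle markers above 1000 CPM was added after the data were seen. The labels give 11 pairs of liver and adipose libraries the same number, taken here as the bird that pairs the tissues. Deviations from the group means of the same bird correlated at -0.04 to 0.08. The liver and adipose libraries of 16v replicate 4 carry different numbers, and the fit with the bird as a block leaves both out. Of 36 pairs of libraries of the same group, 0 agreed within sampling noise by a chi-square test over genes with 10 or more counts (statistic at least 8.06 times its degrees of freedom). Apparent repeat counting of reads and PCR copies can raise this statistic. The test therefore cannot tell how far the libraries differ beyond sampling. The fits were tested on simulated counts. Software was R 4.3.3, edgeR 4.0.16, limma 3.58.1, DESeq2 1.42.0, Python 3.11.15, scipy 1.17.1 and matplotlib 3.10.9.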

Additional observations from a re-analysis of the deposited data

Results flagged for a closer look

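Each group of 4 libraries was looked at for a library far from the other 3, over the members tested in a tissue. Of 99 such groups 9 had one whose gap to its neighbour exceeded Dixon's 95% limit. That limit is passed by chance in about 1 in 20 groups only for independent, normally spread values. CPM from few and apparently repeatedly counted reads need not be such values, so the 9 are not read against that rate. In liver, SLC25A1 had 235 CPM in 8L replicate 4, below 351 to 357 CPM in the others, in the library with 785 CPM of immune markers. SLC25A20 had 41.7 CPM in 16v replicate 1, below 68.8 to 73.5 CPM. SLC25A26 had 64.3 CPM in 12v replicate 3, above 2.85 to 10.2 CPM, in a library of 72125 counts. This value rests on 6 summed counts of a gene with 8 transcripts, whose summed count was 6.86 times that of the leading one in liver. SLC25A51 had 1.46 CPM, from 1 count, in 12v replicate 2, where the others had 0.

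In adipose tissue, SLC25A4 had 27.3 CPM in 8L replicate 1, above 3.01 to 3.54 CPM, and 378 CPM in 16v replicate 4, above 0 to 47.6 CPM. SLC25A26 had 41.0 CPM in 8L replicate 1, above 8.22 to 12.7 CPM. SLC25A28 had 9.34 CPM in 12v replicate 2, below 19.4 to 19.9 CPM, and SLC25A37 had 24 CPM in 8L replicate 3, above 8.22 to 9.91 CPM. Both flagged 8L replicate 1 values came from a library with 3958 CPM of muscle markers.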

How the results depend on the processing

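The tissue comparison called 16 members, beside 4148 of all 7276 genes. It also called 16 with RLE factors (4431 of 7276 genes), library size alone (4786), limma-voom (4424) and DESeq2 (4664). Without a count filter it called 17, beside 5623 of 17220 genes. When each library was left out it called 15 to 17, given without the all-gene share. With the filter of a mean of 20 counts it called 8 of 9 tested members, beside 2132 of 3435 genes. With 1 transcript per gene it called 9 of 11, beside 3282 of 4574 genes. The bird as a block called 14, of which 13 were among the 16, beside 3525 of 7562 genes. For day length, the replicate block by sample number called 0 in both tissues, as did the fits without it. Deviations of the same sample number correlated at -0.17 to 0.21 in liver and -0.10 to 0.05 in adipose tissue. Liver and adipose libraries of the same bird gave only -0.04 to 0.08. Such correlations therefore cannot decide whether the sample numbers pair libraries across photoperiods. DESeq2 called 1 member at 12v against 8L, 2 at 16v against 8L and 3 for any difference in liver. For the tissue difference it called 1 at 12v against 8L, 2 at 16v against 8L and 1 at 16v against 12v. That at 16v against 8L was 1 (SLC25A12) with RLE factors, library size alone, the mean of 20 counts and without the 3 liver libraries set apart and the 2 shallow libraries. Over all genes these fits called 47 of 7276, 28 of 7276, 65 of 3435 and 83 of 8301. The number of members ran from 0 to 1 when each library was left out, with SLC25A12 passing without liver 12v replicate 1 or 3. The cause was not tested for any of these, apart from the fewer members that the filter and the single transcripts left.

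Directions turned for SLC25A25 in liver at 16v against 12v without 12v replicate 3 (range over single libraries left out -0.80 to 0.054). Without adipose 16v replicate 4 they turned for SLC25A4 in adipose tissue at 16v against 8L (-0.21 to 4.95) and 16v against 12v (-0.76 to 4.85) and for SLC25A12 at 16v against 12v (-0.23 to 1.36). The tissue difference of SLC25A4 at 16v against 12v was -3.33, and 0.22 with the bird as a block, 0.14 without the 5 libraries with muscle markers and -5.02 to 0.60 over single libraries left out, highest without adipose 16v replicate 4. The fit with the bird as a block also leaves out that library. The tissue difference of SLC25A30 at 16v against 12v was -3.49, and -5.28 to 1.17 over single libraries left out, highest without liver 12v replicate 4. Without that library SLC25A30 had 0 counts in liver at 12v, so its turn depends on the prior count. Depth was a limit, since 20 of 35 in liver and 17 of 35 in adipose tissue had too few counts for a test.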
